A study of Mus musculus with 18 samples.

Results

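The HoxA cluster is 1 of the 4 Hox clusters of the mouse and lies on the minus strand of chromosome 6 (GRCm38 assembly, which mm10 names). The genes described here were chosen by name, as the rows of the read count files whose Entrez identifier belongs to Hoxa2, Hoxa3, Hoxa4, Hoxa5, Hoxa6, Hoxa7 or Hoxa9, and they are 7 of the 27179 genes counted in the series. Of these 7 genes, 6 were tested among 20944 genes with at least 1 count in an iHox library. Hoxa9 (chr6:52223097-52227370) had 0 counts in each of the 18 libraries and could not be tested. A count of 0 allows a level of up to 3 counts, which was 0.0883 to 0.122 CPM in these libraries and covers counting error only.

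RNA was sequenced from embryoid bodies of mouse embryonic stem cells that were differentiated toward the spinal cord with 1 µM retinoic acid (RA) and 0.5 µM of the Hedgehog pathway agonist SAG, in 6 groups of 3 libraries that the study describes as independent differentiations. Day 2 progenitors came from the line labeled Ainv15(iCre) and were collected at day 2 without doxycycline (Dox). Control neurons came from the line Ainv15(iFlag.Hoxc6) at day 4 without Dox. The iHoxc6, iHoxc8, iHoxc9 and iHoxc10 neurons came from the lines Ainv15(iFlag.Hoxc6), Ainv15(iFlag.Hoxc8), Ainv15(iFlag.Hoxc9) and Ainv15(iFlag.Hoxc10), also at day 4, after 48 h in 3 µg/ml Dox, a drug that switches on the transgene of these lines. That transgene is 1 Flag-tagged Hox gene, present as a single copy at the Hprt locus. Each induced gene was thus seen in 1 line, and control and day 2 cells were not exposed to Dox. The embryoid bodies held both motor neurons and interneurons.

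Hox genes encode homeodomain transcription factors that give cells of the hindbrain and spinal cord their position along the body axis. The genes of a cluster follow the order of the domains in which they act, with those at the 3′ end (Hoxa2, Hoxa3) active furthest toward the head and first to respond to RA, and those at the 5′ end (Hoxa9 and beyond) active toward the tail. In motor neurons derived from embryonic stem cells, a boundary bound by the insulator protein CTCF is known to lie between Hoxa5 and Hoxa6.

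Levels are given as CPM, read counts relative to the library total after scaling by the TMM method of edgeR. Differences between groups were taken from edgeR's quasi-likelihood test, fitted to all 18 libraries and all 20944 genes, and a gene was called at a Benjamini-Hochberg adjusted p under 0.01. A fold change is on the log2 scale with its standard error (SE). Total counts were 24498630 to 33168533 per library. The induced gene was at 213 to 532 CPM in its own line, and at most at 5.17 CPM elsewhere at day 4, except Hoxc6 in iHoxc10 neurons (43.1 to 49.4 CPM). The identifiers that the labels share between libraries, which have the form of a flow cell name, put control with iHoxc6, iHoxc9 with iHoxc10, and iHoxc8 and day 2 each alone. Only iHoxc6 against control and iHoxc9 against iHoxc10 were therefore compared within 1 such identifier, and whether it also marks a shared culture or library preparation is not stated. In the other comparisons, the identifier and the group cannot be told apart.

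Before Hox induction, the 3′ part of the cluster was already transcribed and the 5′ part was near the detection limit. In day 2 progenitors Hoxa4 was at 28.2 ± 5.31 CPM per kilobase of exon (mean ± SD, n = 3), Hoxa5 at 23.5 ± 1.83, Hoxa2 at 17.0 ± 0.89 and Hoxa3 at 10.4 ± 1.60. Hoxa6 was at 0.191 ± 0.175 and Hoxa7 at 0.0924 ± 0.0422 CPM per kilobase. On this scale, the 6 detected genes summed to 79.4 ± 5.09 at day 2 and to 150 ± 26.4 in control neurons. The sum was 179 ± 8.57 for iHoxc10, 131 ± 9.17 for iHoxc8, 120 ± 4.45 for iHoxc6 and 33.2 ± 2.56 for iHoxc9. iHoxc9 neurons had the lowest sum, and their 3 libraries (30.4 to 35.3) lay under all day 2 libraries (74.9 to 84.9).

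**Figure D1:**
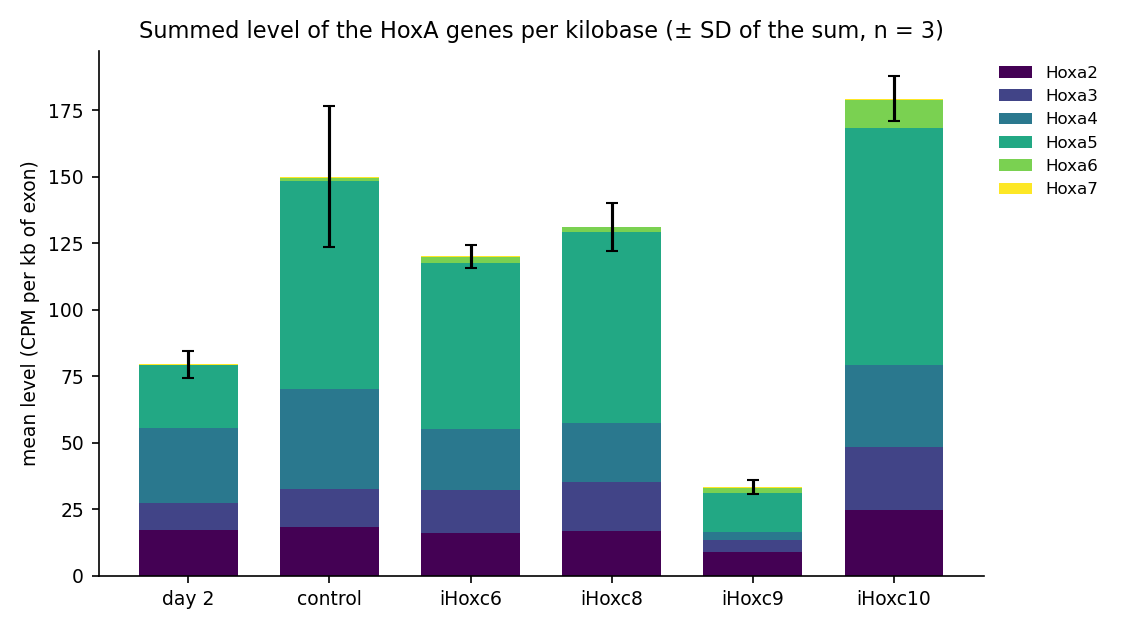
Stacked bars show the mean level of each HoxA gene per kilobase of exon in the 6 groups, and the error bar is the SD of the summed level over 3 libraries. The iHoxc9 bar is the shortest (33.2) and the iHoxc10 bar the tallest (179), and Hoxa2, Hoxa3, Hoxa4 and Hoxa5 make up nearly the whole of each bar.

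Hoxa5 held the largest share of this sum at day 4. Its share was 29.7% ± 3.66 in day 2 progenitors, where Hoxa4 held 35.4% ± 4.54, and 51.8% ± 4.10 in control neurons, where Hoxa4 held 24.9% ± 0.757. In iHoxc9 neurons Hoxa5 held 43.8% ± 1.52 and Hoxa4 9.59% ± 1.44, so that Hoxa2, with 26.5% ± 3.11, came second. Hoxa6 held 0.833% ± 0.357 of the sum in control, 5.06% ± 1.51 in iHoxc9 and 5.74% ± 1.42 in iHoxc10 neurons.

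**Figure D2:**
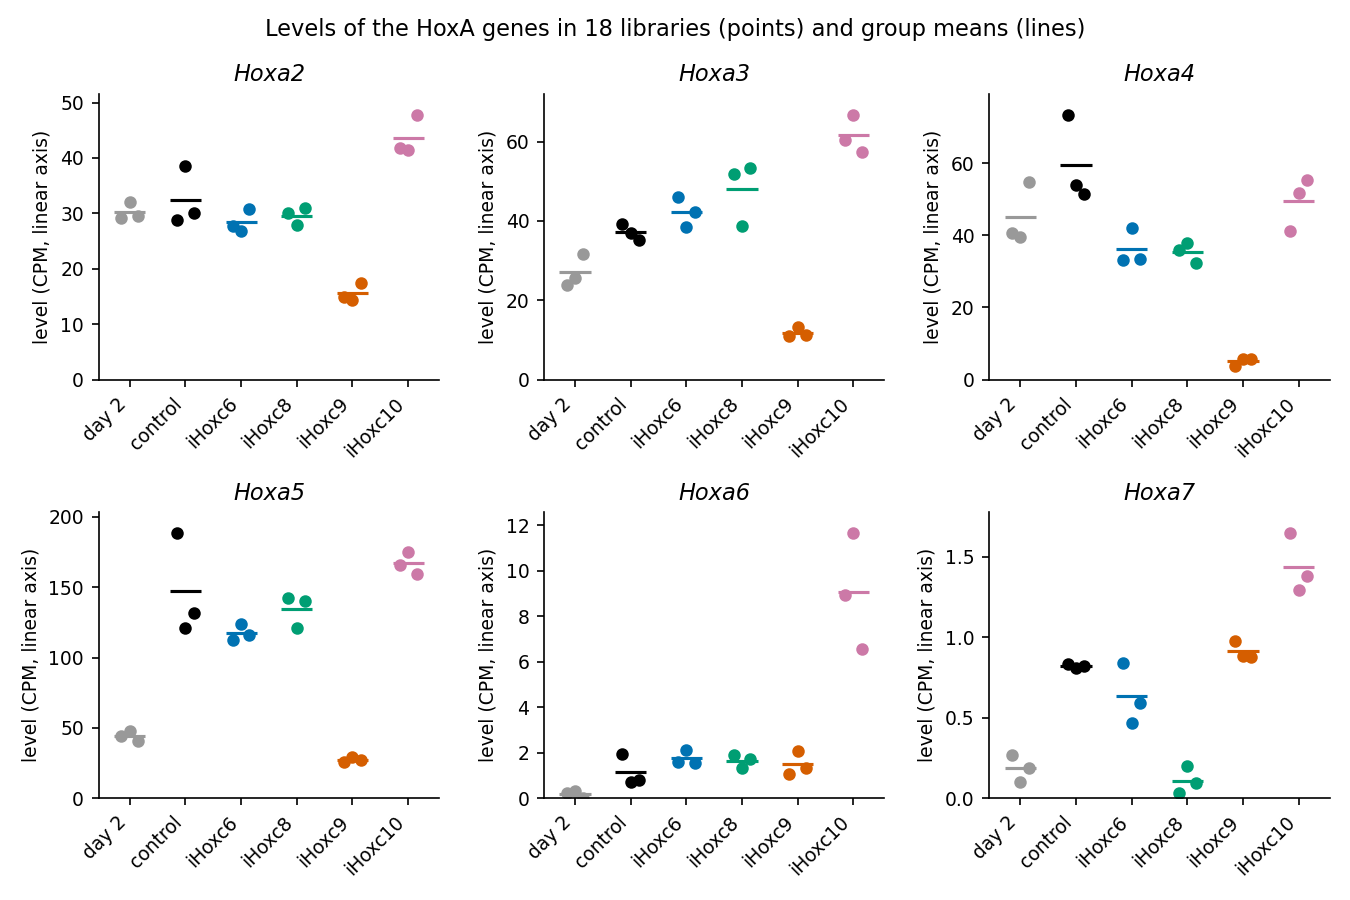
Each point is 1 library and each line the mean of 3, with the level in CPM on a linear axis that starts at 0 and the 6 groups along the horizontal axis. Hoxa2, Hoxa3, Hoxa4 and Hoxa5 are lowest in the 3 iHoxc9 libraries, Hoxa6 is highest in the 3 iHoxc10 libraries (6.56 to 11.6 CPM), and Hoxa7 is lowest in mean in iHoxc8 (0.108 CPM).

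From day 2 to day 4 without Dox, Hoxa5, Hoxa6 and Hoxa7 were higher and the genes 3′ of them were not called. This comparison asks how far the cluster changed during differentiation alone, although the cells also differ in line. Of the 6 tested genes 3 were higher in control neurons, against 21.2% of all genes tested, and 0 were lower. The median log2 fold change of the 6 genes was 1.10, beside 0 over all genes.

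Hoxa5 (chr6:52201754-52204587), required for the phrenic motor column that drives the diaphragm, was at 44.0, 47.5 and 40.6 CPM in the day 2 libraries and at 188, 121 and 132 CPM in control. The groups were far apart, and control replicate 1 lay above the others. The log2 fold change was 1.74 (SE 0.15, adjusted p = 1.08e-09). Hoxa6 (chr6:52204858-52208672), a gene of the brachial spinal cord, was at 0.202, 0.300 and 0 CPM at day 2 and at 1.96, 0.693 and 0.786 CPM in control. Hoxa7 (chr6:52215623-52218573), which acts further toward the trunk, was at 0.269, 0.0998 and 0.187 CPM at day 2 and at 0.835, 0.809 and 0.823 CPM in control. Both genes were thus low at either time, with control above day 2 in every library. Hoxa6 differed by 2.79 (SE 0.55, adjusted p = 0.000182) and Hoxa7 by 2.12 (SE 0.40, adjusted p = 0.000115) on the log2 scale.

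Hoxa2, Hoxa3 and Hoxa4 differed by 0.10 (adjusted p = 0.562), 0.46 (adjusted p = 0.0108) and 0.41 (adjusted p = 0.0569). Hoxa3 and Hoxa4 were called higher as well when day 2 replicate 3 was left out, with adjusted p-values of 0.00168 and 0.00895, which makes 5 genes. The value of Hoxa6 rested on few counts, with 6, 9 and 0 reads at day 2, and moved between 2.14 without control replicate 1 and 3.49 without day 2 replicate 2, with 2.20 without day 2 replicate 3.

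**Figure D3:**
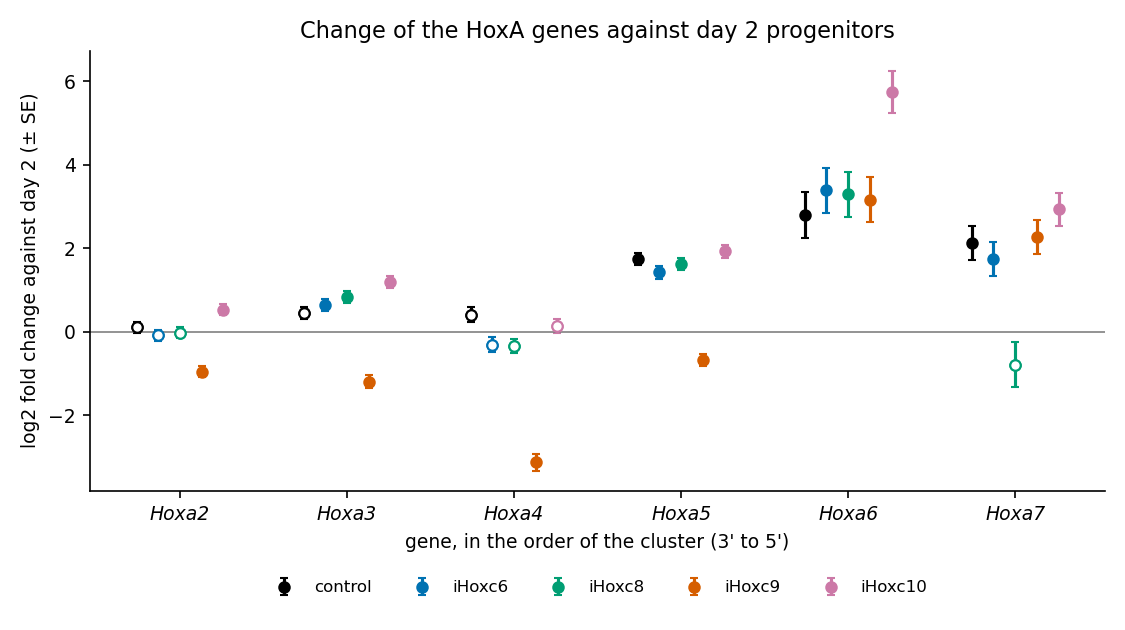
Points are log2 fold changes of each HoxA gene in the 5 day 4 groups against day 2 progenitors, with SE bars, along the gene order of the cluster. Filled points have an adjusted p under 0.01, and open points do not. Hoxa5, Hoxa6 and Hoxa7 lie above 0 in control, and the 4 iHoxc9 points of Hoxa2 to Hoxa5 lie below 0.

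The same day 2 libraries served for the induced lines. In iHoxc6 neurons 4 of 6 genes were above day 2 (Hoxa3, Hoxa5, Hoxa6 and Hoxa7, against 22.7% of all genes), in iHoxc8 neurons 3 of 6 (Hoxa3, Hoxa5 and Hoxa6, against 22.3%), and in iHoxc10 neurons 5 of 6 (each but Hoxa4, against 24.1%). Without iHoxc10 replicate 3, Hoxa2 was no longer called in iHoxc10 neurons (adjusted p = 0.0114). Only iHoxc9 neurons had genes called lower than at day 2. There Hoxa2, Hoxa3, Hoxa4 and Hoxa5 were lower than in day 2 progenitors (against 23.3% of all genes lower), by 0.96, 1.20, 3.13 and 0.69 on the log2 scale in the test's estimate, with adjusted p-values from 5.49e-12 to 0.000309. Hoxa6 and Hoxa7 were higher than at day 2 (against 23.4% higher), by 3.16 (SE 0.54, adjusted p = 2.76e-05) and 2.27 (SE 0.40, adjusted p = 4.03e-05). With 6 genes, a count of 2 lies near this share. Both genes were also higher in control neurons, by 2.79 and 2.12, so this part was not particular to iHoxc9. The difference of Hoxa6 from day 2 depended on the day 2 libraries in each line. Without day 2 replicate 2 it was 3.84 in iHoxc9, 4.11 in iHoxc6, 3.98 in iHoxc8 and 6.47 in iHoxc10, and without day 2 replicate 3 it was 2.57, 2.78, 2.69 and 5.15.

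In iHoxc9 neurons the 4 genes from Hoxa2 to Hoxa5 were lower than in control, while Hoxa6 and Hoxa7 were not called. Hoxc9 is the Hox gene of thoracic motor neurons. In iHoxc9 against control neurons 4 of 6 tested genes were lower and 0 were higher, against 7.13% of all genes lower. With a log2 fold change also beyond 2, the added threshold of the study, 2 genes were lower (Hoxa4 and Hoxa5, against 1.17%). The median log2 fold change of the 6 genes was −1.36, beside 0.0013 over all genes.

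Hoxa4 (chr6:52189682-52191703), a gene of the caudal hindbrain and cervical cord, differed most. It was at 73.4, 54.0 and 51.4 CPM in control and at 3.83, 5.83 and 5.69 CPM in iHoxc9 neurons. No library of one group came near the other. Hoxa4 was 11.6-fold lower, a log2 fold change of −3.54 (SE 0.20, adjusted p = 2.71e-11). Hoxa5 was at 25.7, 29.2 and 27.0 CPM in iHoxc9 neurons, below every control library (121 to 188 CPM) and every day 2 library. It was 5.38-fold lower than in control (log2 fold change −2.43, SE 0.15, adjusted p = 1.17e-10).

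Hoxa3 (chr6:52169059-52213067), which patterns the hindbrain and the pharyngeal arches, was at 39.2, 37.0 and 35.1 CPM in control and at 10.9, 13.2 and 11.2 CPM in iHoxc9 neurons. It was 3.14-fold lower (log2 fold change −1.65, SE 0.15, adjusted p = 3.37e-08). The annotated span of Hoxa3 runs across Hoxa4, Hoxa5 and Hoxa6, and 18% of its exon bases overlap antisense RNAs of the cluster (Hoxaas2 and Hoxaas3). Whether counting used the strand is not stated in the sources used here, so reads of Hoxa3 and these RNAs may not be told apart. Hoxa2 (chr6:52162417-52164831), the most 3′ gene described here and a determinant of rhombomere identity in the hindbrain, was at 28.8, 38.6 and 30.0 CPM in control and at 14.8, 14.4 and 17.5 CPM in iHoxc9 neurons. These groups did not overlap, and Hoxa2 had the smallest of the 4 called differences (2.08-fold, log2 fold change −1.06, SE 0.14, adjusted p = 5.1e-06).

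Hoxa6 and Hoxa7 were not called. In iHoxc9 neurons Hoxa6 was at 1.06, 2.09 and 1.31 CPM, overlapping with control (0.693 to 1.96 CPM), with a log2 fold change of 0.37 (SE 0.41, approximate 95% interval −0.44 to 1.18, adjusted p = 0.551). The log2 value of Hoxa6 was 1.02 without control replicate 1 and −0.03 without iHoxc9 replicate 2, with adjusted p-values of 0.12 and 1. Hoxa7 was at 0.978, 0.883 and 0.876 CPM, just above the 3 control libraries, with a log2 fold change of 0.15 (SE 0.33, interval −0.50 to 0.80, adjusted p = 0.808). A difference within these intervals was not detectable at this depth.

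**Figure D4:**
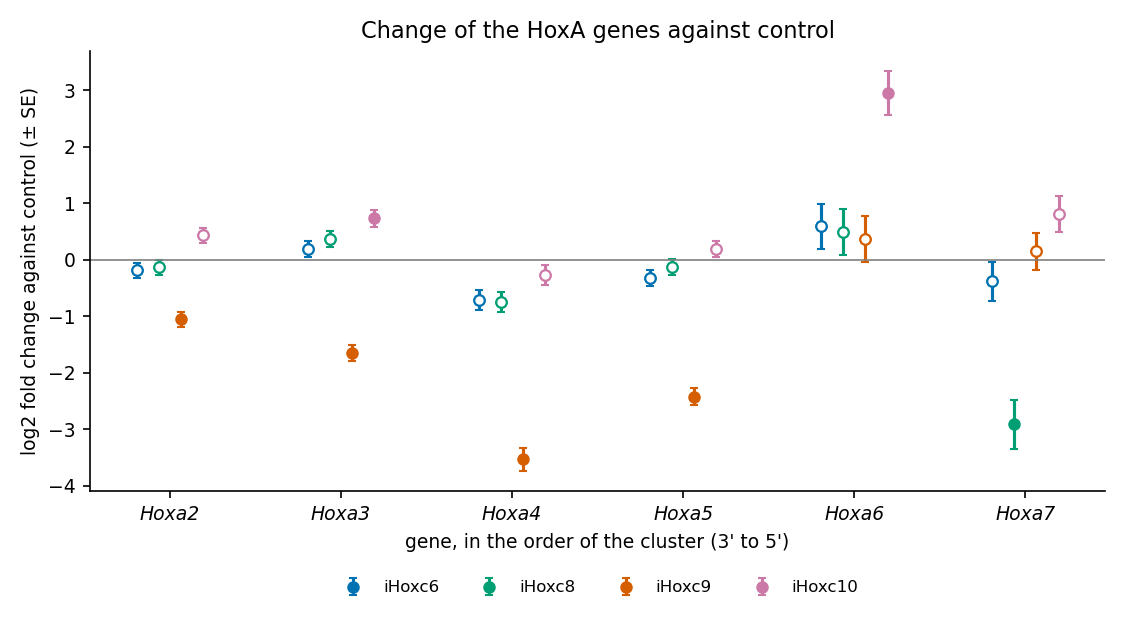
Points are log2 fold changes of each HoxA gene in the 4 induced lines against control, with SE bars, ordered from Hoxa2 to Hoxa7. Filled points have an adjusted p under 0.01. The iHoxc9 points of Hoxa2 to Hoxa5 lie between −1.06 and −3.54, while Hoxa6 stands out at 2.95 in iHoxc10 and Hoxa7 at −2.92 in iHoxc8.

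The embryoid bodies are mixtures, and fewer cells with a transcript and less transcript per cell cannot be told apart in these bulk libraries. The makeup of the iHoxc9 libraries differed from control in the marker lists. The summed level of 5 motor neuron markers (Mnx1, Isl1, Lhx3, Chat and Slc18a3, 5 of 5 above 1 CPM in both groups) was 254 to 274 CPM in iHoxc9 and 493 to 523 CPM in control neurons. For the 3 hindbrain markers (2 of 3 above 1 CPM in both groups, with Egr2 under it) the sums were 36.6 to 41.4 CPM in iHoxc9 and 80.9 to 96.7 CPM in control. Other markers were higher. Sim1, a marker of a class of ventral spinal interneurons, was at 15.2 to 19.6 CPM in iHoxc9 and 0.308 to 0.739 CPM in control (log2 fold change 5.16, SE 0.36, adjusted p = 6.76e-10), while the interneuron markers Evx1, En1 and Gata3 had means under 1 CPM in both groups. Of 5 neural progenitor markers, 2 were higher in iHoxc9 (Sox1 and Sox2, against 6.95% of all genes higher) and 1 was lower (Olig2, against 7.13% lower). The 5 summed to 171 to 198 CPM in iHoxc9 and 138 to 249.8 CPM in control. The part of these shifts in the HoxA result was not tested. The 4 pluripotency markers summed to at most 0.27 CPM in any day 4 library.

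In neurons with the lumbar gene Hoxc10 induced, Hoxa3 and Hoxa6 were above control, and no HoxA gene was called lower. In iHoxc10 against control neurons 2 of 6 genes were higher (Hoxa3 and Hoxa6, against 6.67% of all genes higher) and 0 were lower (against 7.75%). With a log2 fold change beyond 2 there was 1 gene higher, Hoxa6, against 0.773%. The median log2 fold change of the 6 genes was 0.58, beside 0 over all genes.

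Hoxa6 was at 8.93, 11.6 and 6.56 CPM in iHoxc10 neurons, each above the highest control library (1.96 CPM). It was 7.75-fold higher (log2 fold change 2.95, SE 0.39, adjusted p = 1.35e-05), and the log2 value was 3.61 without control replicate 1. Hoxa3 was at 60.5, 66.8 and 57.4 CPM, above all control libraries, with a log2 fold change of 0.73 (SE 0.14, adjusted p = 0.000765). Hoxa2 was at 41.7, 41.5 and 47.8 CPM, also above all control libraries, but its difference of 0.43 (SE 0.13) had an adjusted p of 0.0213. Hoxa2 was called without control replicate 2 (log2 fold change 0.57, adjusted p = 0.00254) and by DESeq2's Wald test (adjusted p = 0.00196).

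Hoxa7 was at 1.65, 1.29 and 1.38 CPM, above the control libraries, with a log2 fold change of 0.80 (SE 0.32, adjusted p = 0.0749). Hoxa4 (41.3, 51.7 and 55.4 CPM) and Hoxa5 (166, 175 and 160 CPM) overlapped with control, with log2 fold changes of −0.27 (SE 0.17, adjusted p = 0.299) and 0.18 (SE 0.14, adjusted p = 0.398). In these neurons the motor neuron markers summed to 477 to 536 CPM and the hindbrain markers to 125 to 146 CPM, with Sim1 at 3.44 to 7.63 CPM (log2 fold change 3.49, SE 0.36, adjusted p = 4.9e-07). Of the 5 progenitor markers 2 were lower (Olig2 and Pax6, against 7.75% of all genes lower) and 0 were higher (against 6.67%).

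The promoters of Hoxa5, Hoxa6 and Hoxa7 are shown for comparison of the sequences at their start sites. Each is the RefSeq window (GRCm38.p6) from 250 bases before to 50 bases after the start of the gene, 300 bases on the minus strand, at chr6:52204538-52204837 for Hoxa5, chr6:52208623-52208922 for Hoxa6 and chr6:52218524-52218823 for Hoxa7. Capitals mark TAAT, the core that most HOX proteins prefer, and TTTAT, a core often bound by posterior HOX proteins, each on either strand, and matches that overlap run together.
Hoxa5: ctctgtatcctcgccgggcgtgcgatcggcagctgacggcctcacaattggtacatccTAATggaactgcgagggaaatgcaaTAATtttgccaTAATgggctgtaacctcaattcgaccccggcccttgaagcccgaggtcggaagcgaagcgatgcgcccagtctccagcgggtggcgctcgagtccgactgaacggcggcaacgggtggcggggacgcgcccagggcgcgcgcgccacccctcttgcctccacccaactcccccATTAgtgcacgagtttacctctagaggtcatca
Hoxa6: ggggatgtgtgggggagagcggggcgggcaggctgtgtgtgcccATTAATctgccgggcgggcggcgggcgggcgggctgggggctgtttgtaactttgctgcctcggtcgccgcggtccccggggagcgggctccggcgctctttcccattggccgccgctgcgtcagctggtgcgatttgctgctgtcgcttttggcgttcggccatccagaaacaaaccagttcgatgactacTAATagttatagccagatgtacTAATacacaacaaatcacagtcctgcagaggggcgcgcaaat
Hoxa7: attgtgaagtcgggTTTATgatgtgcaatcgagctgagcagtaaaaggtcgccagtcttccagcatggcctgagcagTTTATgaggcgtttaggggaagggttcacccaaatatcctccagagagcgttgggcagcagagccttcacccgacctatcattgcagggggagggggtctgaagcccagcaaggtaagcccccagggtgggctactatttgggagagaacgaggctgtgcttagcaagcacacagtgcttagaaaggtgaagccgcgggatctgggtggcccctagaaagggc
The Hoxa5 and Hoxa6 windows each held 4 TAAT matches and 0 TTTAT matches, and the Hoxa7 window held 0 TAAT and 2 TTTAT matches. At least 1 TAAT stood in 58.0% and at least 1 TTTAT in 40.0% of the 32851 promoter windows of this length. Promoters were at hand for 6 of the 7 genes, all but Hoxa4. The Hoxa2 window (chr6:52164782-52165081) held 4 TAAT and 1 TTTAT, the Hoxa3 window (chr6:52213018-52213317) 1 TAAT and 0 TTTAT, and the Hoxa9 window (chr6:52227321-52227620) 2 TAAT and 0 TTTAT. The Hoxa3 window lies at the start of its long annotated span, between Hoxa6 and Hoxa7, and not beside Hoxa2. The Hoxa5, Hoxa6 and Hoxa3 windows were rich in CpG, with 29, 26 and 20 CpG dinucleotides beside a median of 7 over all windows, while Hoxa2 and Hoxa7 had 9 each and Hoxa9 had 4. A match is a string of letters and says nothing of binding in these cells.

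The direct comparison of iHoxc9 with iHoxc10 neurons was made between libraries that share 1 such identifier. Of the 6 tested genes 5 were lower in iHoxc9 neurons, against 2.4% of all genes lower, and 4 were lower by a log2 fold change beyond 2, against 0.597%. The exception among the 6 was Hoxa7, with −0.66 (SE 0.32, adjusted p = 0.268), although all 3 iHoxc9 libraries lay under the 3 iHoxc10 libraries.

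Hoxa4 differed by −3.27 (SE 0.20, adjusted p = 1.44e-10) and Hoxa5 by −2.61 (SE 0.15, adjusted p = 1.11e-10). Hoxa3 differed by −2.38 (SE 0.15, adjusted p = 4.03e-10) and Hoxa2 by −1.49 (SE 0.14, adjusted p = 9.99e-08). Hoxa6, not called against control in iHoxc9 and above it in iHoxc10 neurons, differed by −2.58 (SE 0.38, adjusted p = 6.42e-05). A fit of these 6 libraries alone, with the replicate number as a block, was added after the data were seen. It called 5 genes lower, where 5807 of 20102 genes were called in either direction instead of 1046 of 20944. In this fit edgeR estimated no spread particular to single genes and gave extremely small p-values, so its count adds no support. Motor neuron and hindbrain marker sums were lower in iHoxc9 than in iHoxc10 libraries without overlap, as given above, and Sim1 was higher without overlap (log2 difference 1.68, SE 0.28, adjusted p = 0.000295). Of the 5 progenitor markers 3 were higher in iHoxc9 (Sox1, Sox2 and Pax6, against 2.6% of all genes higher). The part of these differences in the HoxA result was not tested.

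In iHoxc8 neurons, with the brachial gene Hoxc8 induced, 1 of 6 genes was called, and it was Hoxa7. It was lower, against 1.09% of all genes lower and 2.12% called in either direction. Hoxa7 was at 0.0296, 0.200 and 0.0938 CPM, or 1, 6 and 3 reads, where the 3 control libraries had 26, 21 and 22 reads. All iHoxc8 libraries lay under all control libraries and overlapped with those of day 2. The log2 fold change against control was −2.92 (SE 0.44, adjusted p = 0.000475), or 7.56-fold, and it was −3.67 without iHoxc8 replicate 2. Counts this low give a wide range for the size, and the iHoxc8 libraries shared no flow cell name with another group.

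Hoxa4 was at 35.9, 38.0 and 32.4 CPM in iHoxc8 neurons, below the 3 control libraries. Its log2 fold change was −0.75 (SE 0.18, adjusted p = 0.0124), short of the threshold, and it was called by DESeq2's Wald test (adjusted p = 0.00197) and without control replicate 2 (adjusted p = 0.00559). Hoxa2, Hoxa3, Hoxa5 and Hoxa6 overlapped with control, with log2 fold changes of −0.13, 0.37, −0.13 and 0.49 and adjusted p-values from 0.115 to 0.631. Motor neuron markers summed to 409 to 440 CPM in the iHoxc8 libraries, below all control libraries. Hindbrain markers summed to 113 to 128 CPM, above all control libraries. Whether these shifts bear on the HoxA genes was not tested.

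In iHoxc6 neurons, which share this identifier with control cells of the same line, 0 of 6 genes were called by edgeR, against 0.587% of all genes called in either direction. At an unadjusted p under 0.05 there were 2 genes (Hoxa4 and Hoxa5, against 21.2% of all genes), and DESeq2's Wald test called 1 (against 2.22%). That gene, Hoxa4, was at 33.1, 42.0 and 33.5 CPM, below the 3 control libraries. Its log2 fold change was −0.72 (SE 0.18, adjusted p = 0.0312 by edgeR and 0.00535 by DESeq2), and without control replicate 2 it was called by edgeR too (adjusted p = 0.00918). Hoxa5 was at 113, 124 and 116 CPM, and its range overlapped with that of control (log2 fold change −0.32, SE 0.14, adjusted p = 0.194). For Hoxa2, Hoxa3, Hoxa6 and Hoxa7 the log2 fold changes were −0.19, 0.19, 0.59 and −0.39, with adjusted p-values from 0.428 to 0.562. Motor neuron markers summed to 377 to 428 CPM and hindbrain markers to 68.2 to 73.8 CPM in the iHoxc6 libraries. Both sums were below all control libraries, and whether these shifts bear on the HoxA genes was not tested.

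The order of the 6 groups by mean level differed from gene to gene. Hoxa2, Hoxa3, Hoxa4 and Hoxa5 were all lowest in iHoxc9 neurons, and the step from iHoxc9 to the next group was called for each of them (adjusted p-values from 9.77e-10 to 0.000309). Among the other 5 groups, no neighboring pair was called for Hoxa2, Hoxa3 or Hoxa4. For Hoxa5, day 2 progenitors were also below the next group, iHoxc6 (log2 difference 1.42, adjusted p = 2.1e-08), and no neighbors among the 4 remaining groups were called. For Hoxa6, iHoxc10 was above the next group, iHoxc6 (2.37, adjusted p = 0.000154), and day 2 was below control, with iHoxc6, iHoxc8, iHoxc9 and control in between and no neighbors called. For Hoxa7 the order was iHoxc10, iHoxc9, control, iHoxc6, day 2 and iHoxc8, and only the step from iHoxc6 to day 2 was called (1.74, adjusted p = 0.00101).

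The induced lines were also tested against each other directly, across these identifiers. iHoxc9 was lower than iHoxc6 for 4 of 6 genes (Hoxa2 to Hoxa5, against 3.68% of all genes lower) and lower than iHoxc8 for the same 4 genes (against 2.42%). Hoxa7 was higher in iHoxc9 than in iHoxc8 (1 of 6 genes, against 2.95% higher), by 3.07 (SE 0.44, adjusted p = 3.11e-05) on the log2 scale. iHoxc10 was higher than iHoxc6 for Hoxa2, Hoxa3 and Hoxa6 (3 of 6, against 6.17%). Hoxa2 was not called without iHoxc6 replicate 1, iHoxc6 replicate 2 or iHoxc10 replicate 3 (adjusted p-values from 0.0122 to 0.0187), and Hoxa3 not without any 1 of the 6 libraries (adjusted p-values from 0.0132 to 0.0634), so that the count fell to 1 at the lowest. iHoxc10 was higher than iHoxc8 for Hoxa6 and Hoxa7 (2 of 6, against 1.67%). Between iHoxc8 and iHoxc6, 1 of 6 genes was lower, Hoxa7 (against 0.482%), by −2.53 (SE 0.45, adjusted p = 0.00164). It was not called without iHoxc6 replicate 1, iHoxc8 replicate 1 or iHoxc8 replicate 3 (adjusted p-values from 0.0142 to 0.0159), and the value was −3.31 without iHoxc8 replicate 2. Without that library the difference of Hoxa7 was 3.80 for iHoxc9 and 4.50 for iHoxc10 against iHoxc8. In fits of the 6 libraries compared with the replicate number as a block, added after the data were seen, 1 member was lower in iHoxc8 than in iHoxc6, where 4984 of 20001 genes were called in either direction instead of 744 of 20944. For iHoxc9 against iHoxc6 4 members were lower, where 7266 of 20121 genes were called instead of 2450. With that many genes called, the member counts of these fits add little. These comparisons reuse the same libraries, so their counts are not independent of those against control.

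Ratios of neighboring genes within a library do not depend on library size and were compared from one end of the cluster to the other. For 6 pairs in 4 lines, 24 ratios were compared with control by a two-sided exact permutation test, whose smallest p for 3 against 3 libraries is 0.1 (0.114 after adjustment over the 24). None of the 24 could therefore pass 0.05. Ratios are given on the log2 scale of counts with a pseudocount of 0.5.

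The ratio of Hoxa4 to Hoxa3 was 0.67 ± 0.21 (SD, n = 3) in control and −1.22 ± 0.26 in iHoxc9 neurons, and it was lower than control in all libraries of iHoxc6 (−0.23 ± 0.31), iHoxc8 (−0.43 ± 0.36) and iHoxc10 (−0.32 ± 0.25) as well. The ratio of Hoxa6 to Hoxa5 was −7.11 ± 0.47 in control, −4.24 ± 0.40 in iHoxc9 and −4.24 ± 0.35 in iHoxc10 neurons. The difference from control was 2.87 in both lines, which they reached from opposite sides, with Hoxa5 lower in iHoxc9 and Hoxa6 higher in iHoxc10. In iHoxc6 and iHoxc8 this ratio was −6.07 ± 0.18 and −6.36 ± 0.15, still above the 3 control libraries. Each of these differences had the smallest exact p of 0.1.

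**Figure D5:**
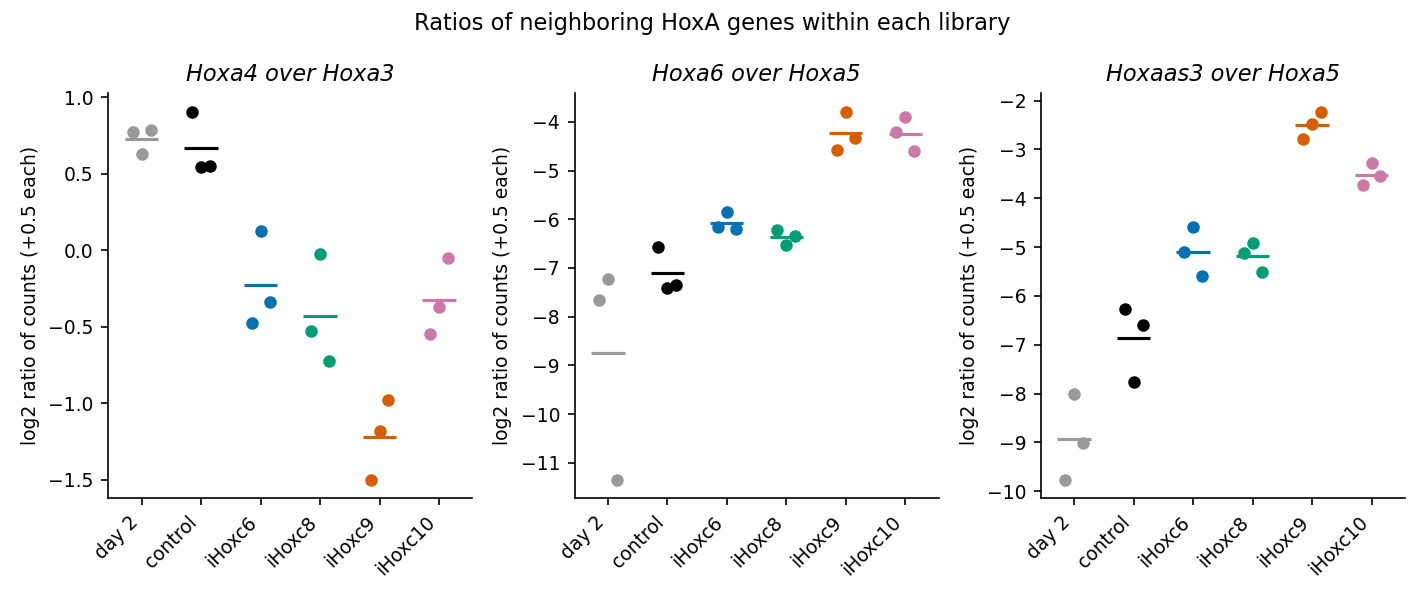
Points are log2 ratios of counts within single libraries and lines are means of 3, for Hoxa4 over Hoxa3, Hoxa6 over Hoxa5 and the antisense RNA Hoxaas3 over Hoxa5. Hoxa6 over Hoxa5 stands at −4.24 in both iHoxc9 and iHoxc10 and at −7.11 in control, and Hoxaas3 over Hoxa5 is highest in iHoxc9 (−2.50). In 1 day 2 library Hoxa6 had 0 reads.

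Noncoding RNAs of the cluster were read with the genes beside them. Of 11 listed 5′ genes and cluster RNAs 6 were in the files and 4 were tested. Hoxaas3, a noncoding RNA on the opposite strand that spans Hoxa5 and Hoxa6, was at 2.44, 0.539 and 1.35 CPM in control, at 3.72, 5.21 and 5.73 CPM in iHoxc9 and at 12.4, 18.1 and 13.6 CPM in iHoxc10 neurons. All libraries of both lines lay above control. The log2 fold change was 1.74 (SE 0.35, adjusted p = 0.00103) in iHoxc9 and 3.32 (SE 0.36, adjusted p = 8.74e-07) in iHoxc10, and 1.30 (adjusted p = 0.0477) and 1.33 (adjusted p = 0.0242) in iHoxc6 and iHoxc8. In iHoxc9 neurons Hoxaas3 was thus higher while Hoxa5 was lower, and their log2 ratio was −6.87 ± 0.79 in control and −2.50 ± 0.28 in iHoxc9. Without a stated strand setting, reads where Hoxaas3 overlaps other genes are uncertain.

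Mira, a noncoding RNA next to the 3′ end of Hoxa7 on the same strand, was at 1.03, 1.04 and 1.05 CPM in control and at 0.266, 0.0334 and 0.188 CPM in iHoxc8 neurons. It was lower in every iHoxc8 library (log2 fold change −2.61, SE 0.41, adjusted p = 0.000627), as was Hoxa7, and in iHoxc10 neurons it was at 2.28, 2.29 and 1.74 CPM (1.02, SE 0.31, adjusted p = 0.0193). The GENCODE annotation, used here for exon lengths only, counts this span as part of Hoxa7. Reads were counted on RefSeq genes, where no other gene overlaps the span of Hoxa7. Whether reads of the same transcript fall on both was not tested. The genes beyond Hoxa9 stayed near 0, with at most 2 reads of Hoxa10, 1 of Hoxa13 and 0 of Hoxa11 in any library. Among 5 genes that flank the cluster, 1 was lower in iHoxc9 than in control neurons (against 7.13% of all genes), Skap2 (−0.99, SE 0.12, adjusted p = 3.9e-06), and 0 in iHoxc10.

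The paralogs in the other clusters showed how far the pattern reached beyond HoxA. In iHoxc9 against control neurons 12 of 17 listed HoxB, HoxC and HoxD genes were lower (against the 7.13% given above) and 2 were higher (against 6.95%), namely the induced Hoxc9 itself and Hoxd8. With 17 genes, the count of 2 higher lies near its share. The median log2 fold change of the 17 genes was −1.80. Hoxb4 (−3.32, SE 0.15), Hoxb5 (−2.85, SE 0.21) and Hoxc5 (−6.62, SE 0.20) were lower with adjusted p-values from 2.75e-16 to 1.57e-09, as were Hoxa4 and Hoxa5. Hoxb6 (−3.36, SE 0.21, adjusted p = 1.57e-10) and Hoxb7 (−2.47, SE 0.19, adjusted p = 3.92e-09) were lower too, unlike Hoxa6 and Hoxa7, which were not called. Whether the HoxA and HoxB genes differed in their change was not tested.

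In iHoxc10 neurons 2 of the 17 paralogs were higher (against 6.67% of all genes), Hoxc6 (3.88, SE 0.26, adjusted p = 8.43e-10) and Hoxd8 (3.28, SE 0.36, adjusted p = 1.02e-06), and 2 were lower (against 7.75%), Hoxb4 (−1.18, SE 0.14, adjusted p = 4.05e-06) and Hoxc5 (−1.72, SE 0.15, adjusted p = 6.12e-08). With 17 genes, a count of 2 lies near these shares. Hoxc6 and Hoxa6 are of the same paralog group.

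Genes that act upstream or together with HOX proteins were taken by list. Of 15 genes of retinoid signaling, 5 were lower and 1 was higher in iHoxc9 neurons (against 7.13% and 6.95% of all genes), and 2 were lower and 2 higher in iHoxc10 neurons (against 7.75% and 6.67%). With 15 genes, a count of 1 or 2 lies near these shares. Cyp26a1, an enzyme that degrades RA, was at 131 ± 18.5 CPM in iHoxc9, 30.3 ± 10.5 in iHoxc10 and 5.87 ± 1.64 in control neurons (log2 fold change 4.48, SE 0.23, adjusted p = 8.87e-12 in iHoxc9 and 2.36, SE 0.22, adjusted p = 1.13e-07 in iHoxc10). Cyp26b1, a second such enzyme, was at 27.6 ± 7.22 CPM in iHoxc9 and 232 ± 97.7 in control (−3.07, SE 0.27, adjusted p = 2.61e-08). Aldh1a2, which makes RA, was at 184 ± 20.1 CPM in iHoxc10 and 29.1 ± 5.29 in control (2.66, SE 0.22, adjusted p = 1.6e-08). Whether these levels bear on the HoxA genes was not tested.

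Of 13 Polycomb and Trithorax subunits and related chromatin genes, 1 was higher in iHoxc9 (Kdm6b, a histone H3K27 demethylase) and 2 in iHoxc10 (Kdm6b and Pcgf2), and 0 were lower in either. Of all genes 6.95% and 6.67% were higher, which for 13 genes is about 1 gene. The caudal activators Cdx1, Cdx2 and Cdx4, with 2 of 3 tested, were not called in any line against control. Cdx2 and Cdx4 had means of at most 0.0333 CPM in any group, so a change in them was hardly detectable. Of 3 genes known to follow Hox5 function in phrenic motor neurons, 2 were lower in iHoxc9 neurons, against 7.13% of all genes. They were Pou3f1 (−1.20, SE 0.19, adjusted p = 7.23e-05) and Ptn (−2.67, SE 0.27, adjusted p = 1.37e-07), and Alcam was not called (−0.02, SE 0.21). Hoxa5 was lower in the same neurons. In iHoxc10 neurons, where Hoxa5 was not called, Ptn was also lower (−1.30, SE 0.25, adjusted p = 0.00051), against 7.75% of all genes. In iHoxc8 neurons, where Hoxa5 was not called either, Alcam was higher (1.28, SE 0.21, adjusted p = 0.00111). Whether these genes followed Hoxa5 or the motor neuron marker sum was not tested. That sum was below all control libraries in iHoxc6 and iHoxc8 as well as in iHoxc9 neurons.

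For each tested gene, the gene of most like pattern was taken as the one with the highest Pearson's r of log2(CPM + 1) over the 18 libraries, among 12832 genes outside the Hox clusters with a mean of at least 1 CPM. These r are descriptions over 6 groups of 3 libraries that share line and treatment. They were 0.877 for Hoxa2 with Irx3, 0.939 for Hoxa3 with Sfmbt2, 0.944 for Hoxa4 with Sp6 and 0.940 for Hoxa5 with Bhlhe23. For Hoxa6 the highest r was 0.973 with Mafa, and for Hoxa7 0.862 with Macroh2a2. Atp2a3 stood among the top 3 for Hoxa2, Hoxa3 and Hoxa4, and Cyp26b1 for Hoxa3 and Hoxa5.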

How the data were processed

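RNA-seq of 18 libraries, 3 in each of 6 groups, was analyzed, with groups and replicate numbers taken from the labels. The authors prepared libraries with a stranded mRNA kit, aligned the reads with STAR (2.7.0c) to mm10, counted them on RefSeq genes with featureCounts, merged genes that share an Entrez identifier, and deposited unnormalized read counts. The strand setting is not given in the sources used here. Of 27179 identifiers, 25275 matched a symbol in the RefSeq table of GRCm38. Exon lengths came from GENCODE.

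Counts were tested in R 4.3.3 with edgeR 4.0.16 (TMM factors, quasi-likelihood test, 1 term for the group, all 18 libraries, 12 residual degrees of freedom). The test covered 20944 genes with at least 1 count in an iHox library. The SE came from the F statistic, and p-values were adjusted by Benjamini-Hochberg over all genes tested. The code was tested on simulated data. Alternatives were DESeq2 1.42.0 (the authors used 1.20.0), its size factors within edgeR, other filters and thresholds, fits of only the groups compared, a replicate block, and each library left out. The members and gene lists were chosen with earlier results of these data known. All members were named, and other genes by list. Some genes of these lists, and the counts and sums that hold them, are not reported here.

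The deviations of same-numbered libraries from their group means correlated at 0.579, 0.474 and 0.651 for iHoxc9 with iHoxc10, at 0.287, 0.63 and 0.61 for iHoxc8 with iHoxc6 and at 0.142, 0.215 and 0.117 for iHoxc9 with iHoxc6. All are over 0.1, so a replicate block was tried for these pairs of lines. Between other pairs of the same lines, replicate 3 correlated at −0.325 (iHoxc9 with iHoxc8), −0.464 (iHoxc10 with iHoxc8) and −0.0456 (iHoxc10 with iHoxc6). The numbers thus do not pair these lines alike. No pairing is stated in the labels, and whether the libraries are paired is not settled. Total counts of 24498630 to 33168533 put the level of 3 counts at 0.0883 to 0.122 CPM. Replicates differed beyond sampling noise (chi-square per degree of freedom 6.78 to 234). The values were highest at day 2 (118 to 234) and in control (47.0 to 155). The test took 1 spread per gene over all groups, so its SE does not reflect such differences between groups. In day 2 replicate 2, 1 gene without a matched symbol held 5.76% of the counts.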

Additional observations from a re-analysis of the deposited data

Results flagged for a closer look

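Differences between induced lines were tested for each gene in the same fit, as the difference of their changes against control, which equals the direct contrast of the lines since the control libraries are shared. They are log2 values with p-values adjusted over all 20944 genes in edgeR's quasi-likelihood test.

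The change in iHoxc9 was below that in iHoxc10 by −1.49 for Hoxa2, −2.38 for Hoxa3, −3.27 for Hoxa4, −2.61 for Hoxa5 and −2.58 for Hoxa6, with adjusted p-values from 1.11e-10 to 6.42e-05. Compared with iHoxc6, the change in iHoxc9 was −0.87 for Hoxa2, −1.84 for Hoxa3, −2.82 for Hoxa4 and −2.11 for Hoxa5 (adjusted p-values from 8.35e-10 to 7.35e-05). Compared with iHoxc8 it was −0.93 for Hoxa2, −2.02 for Hoxa3, −2.79 for Hoxa4 and −2.30 for Hoxa5 (adjusted p-values from 4.1e-10 to 4.24e-05), and 3.07 for Hoxa7 (adjusted p = 3.11e-05).

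The change in iHoxc10 exceeded that in iHoxc6 by 0.62 for Hoxa2 (adjusted p = 0.00219), 0.54 for Hoxa3 (adjusted p = 0.00966, and above 0.01 without any 1 of the 6 libraries) and 2.37 for Hoxa6 (adjusted p = 0.000154). It exceeded that in iHoxc8 by 2.46 for Hoxa6 (adjusted p = 0.000192) and 3.72 for Hoxa7 (adjusted p = 4.15e-06). Between iHoxc8 and iHoxc6 the difference was −2.53 for Hoxa7 (adjusted p = 0.00164, and above 0.01 without iHoxc6 replicate 1, iHoxc8 replicate 1 or iHoxc8 replicate 3). Only the contrast of iHoxc9 with iHoxc10 lay within 1 shared identifier of the labels, and in the others the identifier and the line cannot be told apart. Outliers within groups were not tested, since each group had 3 libraries.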

How the results depend on the processing

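Over all comparisons with control or day 2 progenitors and between induced lines, 1059 of the recomputed log2 fold changes kept their direction and their side of the threshold, 22 passed it only under an alternative, 17 passed it only in the reported fit, and 0 called values changed sign. Of the counts of genes, 400 stayed within 1.5 times and 26 did not. Of the recomputed levels, 97 were counted as the same and 29 as moved. For genes lower in iHoxc6 than in control (0), DESeq2's Wald test gave 1, and leaving out a library gave 0 to 1, with 1 without control replicate 2. For those lower in iHoxc8 than in control (1), DESeq2 gave 2, no filter gave 2, and leaving out a library gave 1 to 2, with 2 without control replicate 2. The gene added was Hoxa4 each time. Over all 20944 genes, DESeq2 called 465 instead of 123 for iHoxc6 against control and 1173 instead of 443 for iHoxc8. Without a filter 556 of 21883 genes were called for iHoxc8 against control. For those higher in control than at day 2 (3), leaving out a library gave 3 to 5, with 5 without day 2 replicate 3.

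For the lines against each other, apart from iHoxc9 against iHoxc10, the alternatives were chosen after seeing the data. Leaving out a library gave 0 to 1 genes lower in iHoxc8 than in iHoxc6 (1) and 1 to 2 genes higher in iHoxc10 than in iHoxc6 (3). The latter count was 5 by DESeq2's Wald test, 5 with its size factors, 6 with only those libraries in the fit, and 1 with a log2 fold change beyond 2 or beyond 1. Of all 20944 genes, 2311 were called in either direction in the reported fit, 3167 by DESeq2 and 2373 with its size factors. With only those libraries it was 4990 of 19859, so the higher member counts came with more calls over all genes. Beyond 2, 2 genes were lower in iHoxc9 than in iHoxc6 (4).

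With a log2 fold change beyond 2, the counts were 2 lower in iHoxc9 and 1 higher in iHoxc10 than in control, and against day 2 they were 1 higher in iHoxc6, 1 higher in iHoxc8, 1 lower in iHoxc9 and 2 higher in iHoxc10. Beyond 1, they were 1 higher in iHoxc10 than in control and 2 lower in iHoxc9 than at day 2. When a fit held only the 6 libraries compared, Hoxa6 in control (adjusted p = 0.0101) and Hoxa7 in iHoxc6 (adjusted p = 0.0104) were no longer called against day 2. The cause of these changes was not tested.

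A replicate block in the fit of all 18 libraries left the member counts as reported, for example 4 lower in iHoxc9 than in control, except 2 in place of 3 higher in iHoxc10 than in iHoxc6. After the data were seen, the block was also put in fits of only the libraries compared, for 3 pairs of lines. All correlations of same-numbered libraries in these pairs were over 0.1, which does not establish a pairing. These fits left 5 lower in iHoxc9 than in iHoxc10, 4 lower in iHoxc9 than in iHoxc6 and 1 lower in iHoxc8 than in iHoxc6. They had 2 residual degrees of freedom per gene and called many more of all genes, so their counts add little. In the other 12 comparisons the correlations of same-numbered libraries ranged from −0.512 to 0.518. At least 1 pair was not over 0.1 in each, and no such fit was made. Depth limits Hoxa6 and Hoxa7, with 0 to 9 reads at day 2, and Hoxa9, with 0 reads, was not tested.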
